A study of Mus musculus with 4 samples.

Results

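Bone morphogenetic proteins (BMPs) and transforming growth factors beta (TGF-beta) are related secreted ligands, and 34 genes of their signalling pathway were followed here. The members were chosen by name from a table of 35869 gene rows: 6 ligands, 8 signalling receptors, a co-receptor and a decoy receptor, 6 extracellular regulators, 8 Smad proteins and 4 intracellular inhibitors. Every member had exactly 1 row. The cells were oligodendrocytes, the myelin-forming glia of the brain, sorted by flow cytometry from mouse cortex at postnatal day 5 as positive for O4 and GalC, surface lipids of late precursors and differentiating oligodendrocytes. The 2 WT libraries came from control mice, and the 2 KO libraries from mice carrying 2 copies of a knock-in allele at the zinc finger gene Zfp488, written Zfp488KI/KI and labelled Zfp488 KO. How that allele was built, what reporter it may carry, the sex of the mice and the number of animals per library are not stated. The sample labels also enter the cells under a cell line tag, although the series describes sorting from tissue. Nothing states that the libraries of a genotype came from different animals, so the spread behind each p-value is that of these libraries alone and may be technical.

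The ligands bind pairs of type I and type II receptor kinases, and the activated type I receptor phosphorylates receptor-regulated Smads. BMP receptors act on Smad1, Smad5 and Smad9, and TGF-beta and activin receptors on Smad2 and Smad3. Each kind then joins Smad4 and enters the nucleus. In the oligodendrocyte lineage BMP signals are known for holding precursors back from differentiation, with Id proteins among the induced targets, and secreted antagonists such as noggin relieve that block.

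Values are FPKM, fragments per kilobase of transcript and per mapped fragments of the library, so levels of different genes can be compared per length. Tests were run with limma on log2(FPKM + 1), a scale that understates differences of low genes, for the 10754 rows with at least 1 FPKM in at least 2 of the 4 libraries. The libraries summed to between 311846 and 341145 FPKM. Total reads are not given. Low values gathered at steps that place 1 FPKM on a transcript of 1 kb at between 37.4 and 44.0 reads, so read numbers given below are approximate. Pairs of values are given in the order WT 1, WT 2 and KO 1, KO 2. Zfp488 was at 6.61 and 5.29 FPKM in the WT libraries against 4.82 and 4.11 FPKM in the KO libraries, a log2 difference of -0.34 (SE 0.33, limma adjusted p = 0.95). Since the part of the locus that remains is not known, this checks the labels only weakly. Of the oligodendrocyte lineage markers, Olig2 was at between 390.2 and 454.1 FPKM, Sox10 at between 242.4 and 333.1 FPKM and Mbp at between 29.6 and 103.0 FPKM over the 4 libraries. Markers of other cells were also read, and they ran with the library number within each genotype. The 5 endothelial markers summed to at most 0.04 FPKM in WT 1 and KO 1, against 28.6 and 26.7 FPKM in WT 2 and KO 2, nearly all of it Cldn5, with Pecam1 at 0.002 FPKM or less. The 8 markers of microglia and macrophages summed to 18.8 and 23.9 FPKM in the libraries numbered 1 and to 68.0 and 71.3 FPKM in those numbered 2. Markers of pericytes and fibroblasts (8 genes) summed to 0.46 and 3.56 FPKM in the former and to 21.5 and 20.8 FPKM in the latter. The sums of the 6 astrocyte markers were 90.3, 168.1, 115.3 and 256.1 FPKM in WT 1, WT 2, KO 1 and KO 2. Precursor markers (Pdgfra, Cspg4, Ptprz1) ran with genotype instead, at 55.8 and 70.2 FPKM in the WT libraries and 103.0 and 93.2 FPKM in those of KO. In sorted bulk RNA, more cells of a kind and more RNA per cell cannot be told apart.

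Most members were low. The mean over the 4 libraries was at least 10 FPKM for 4 members (Serpine2, Bmp7, Bmp4 and Smad1), between 1 and 10 for 12, and below 1 for 18. Among the members, ligands and receptor-regulated Smads were more abundant in the BMP arm than in the TGF-beta arm, whereas receptors were low in both. Mean receptor FPKM was 1.24 for Bmpr1a, 0.004 for Bmpr1b, 0.695 for Bmpr2 and 0.744 for Acvr1. It was 0.765 for Tgfbr1 and 0.01025 for Tgfbr2. In WT 1, WT 2, KO 1 and KO 2, Bmp2, Bmp4 and Bmp7 summed to 98.4, 88.2, 95.8 and 73.9 FPKM, and Tgfb1, Tgfb2 and Tgfb3 to 4.42, 4.74, 6.82 and 6.37 FPKM. Smad1, Smad5 and Smad9 summed to 20.3, 15.5, 22.5 and 20.7 FPKM, and Smad2 and Smad3 to 2.60, 1.66, 0.79 and 1.38 FPKM. Gdf1, a ligand of the family that is no member and is in neither ligand sum, was at 95.4, 40.4, 77.3 and 55.2 FPKM.

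**Figure D1:**
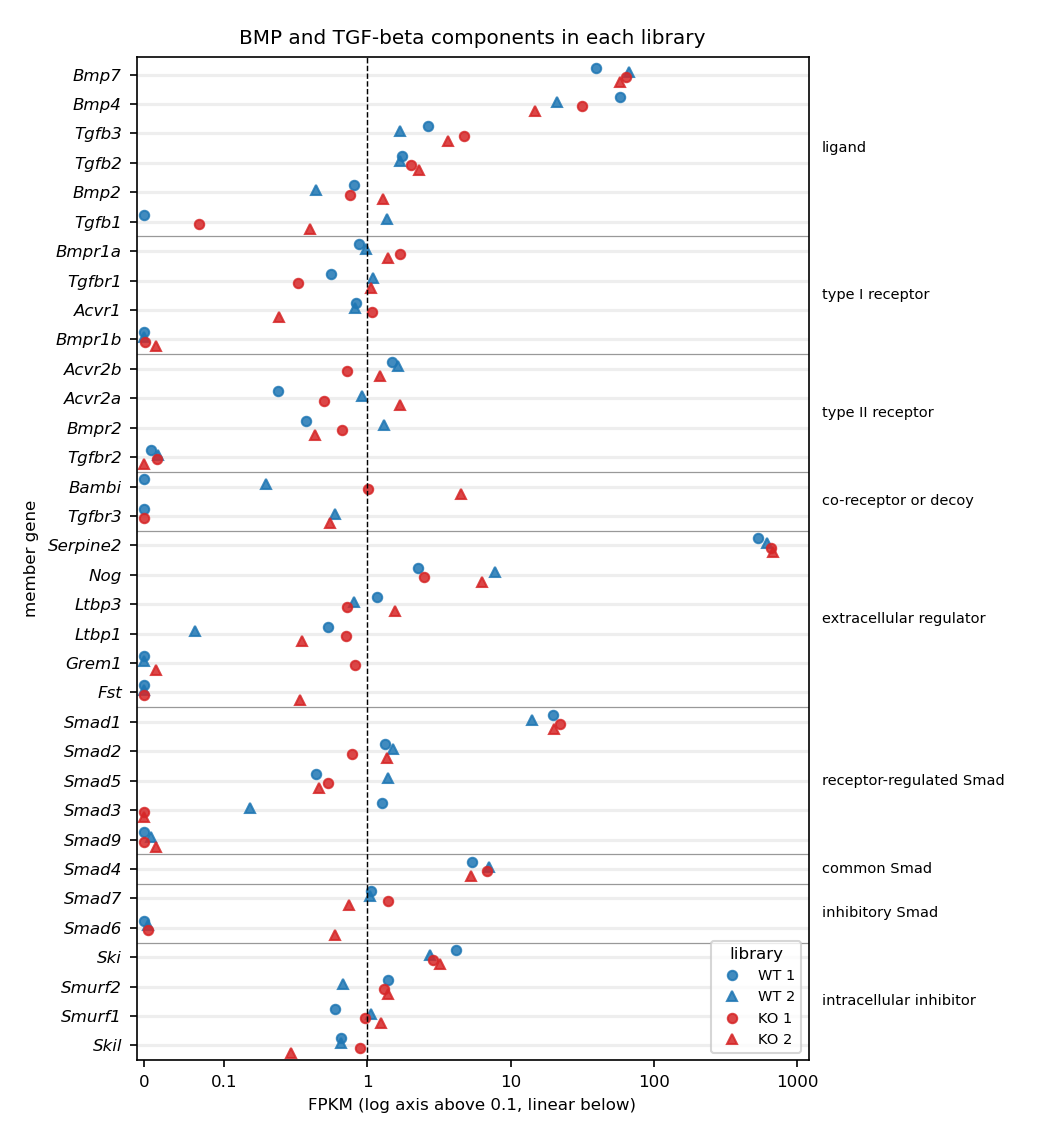
FPKM of all 34 members in each library (blue WT, red KO; circles libraries numbered 1, triangles those numbered 2), grouped by role, with a dashed line at 1 FPKM, the level used in the filter. Serpine2 stood between 534.3 and 681.1 FPKM, and 18 members had a mean below 1 FPKM.

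Across the 10754 tested rows, 0 passed an adjusted p of 0.05 by limma (0% of rows), and 608 (5.65%) had an unadjusted p under 0.05. Of the 34 members 18 passed the filter, and none of these passed the test (smallest limma adjusted p = 0.87). A single member, Bambi, had an unadjusted p under 0.05. For 6 tested members both KO libraries lay above both WT libraries, against 16.6% of all tested rows: Bambi, Tgfb3, Bmpr1a, Smad1, Serpine2 and Tgfb2. Bambi and Bmpr1a entered the test through the KO libraries alone, so their groups had to be separated. For 1 member, Acvr2b, the KO libraries were both lower than either WT library, against 18.3% of rows, and 11 overlapped. Rescaled to TPM, 2335 of the tested rows were higher and 1408 lower, against 1780 and 1969 as deposited, so these backgrounds depend on the scaling. The 3 precursor markers given above were also higher in both KO libraries; their part in these separations was not tested. Among the 16 tested members that did not enter through KO alone, the counts were 4 higher and 1 lower. The shares over all rows keep the rows that entered through KO alone, as does the median below, so neither is matched to these 16. The median log2 difference was 0.15 over the 18 members and 0.04 over those 16, against 0.00 over all tested rows (8.11e-05), with a median SE of 0.38 for a member. Among the 16 untested members, Bmpr1b and Grem1 also lay higher in both KO libraries and Smad3 lower. Bmpr1b was at 0.015 FPKM or less in every library, so its order rests on values at the floor. Grem1 was listed at 0 in both WT libraries and Smad3 at 0 in both KO libraries. With no filter, 3158 of 22897 rows lay higher in KO and 3046 lower.

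**Figure D2:**
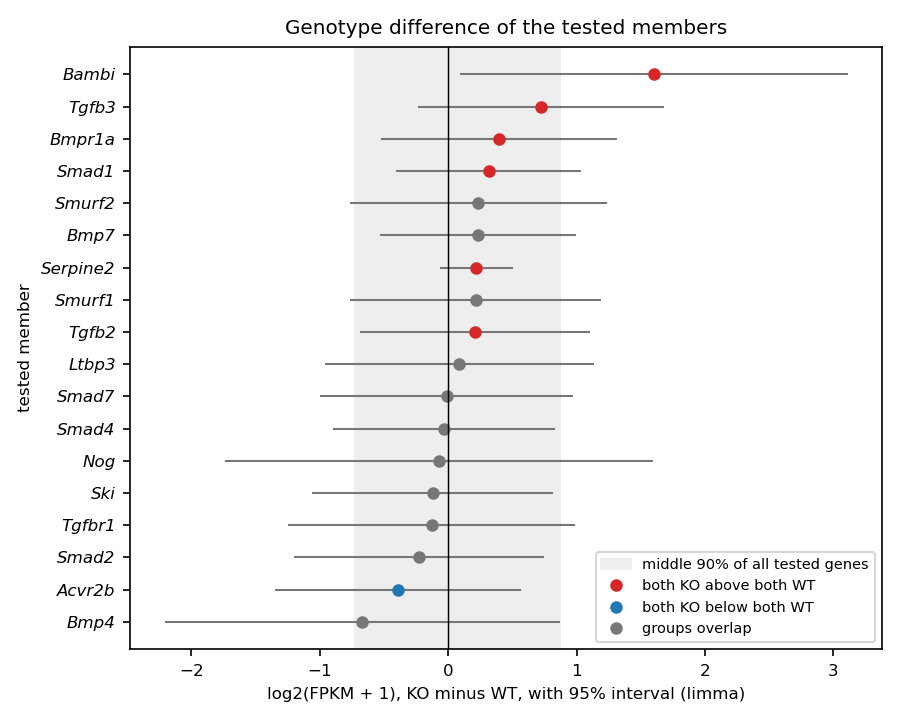
Log2 difference, KO minus WT, of log2(FPKM + 1) for the 18 tested members with 95% intervals from limma, over a grey band holding the middle 90% of all tested rows (-0.72 to 0.87). Bambi alone lies outside the band, and every interval except that of Bambi spans 0. Bambi and Bmpr1a entered the test through the KO libraries alone, so their separation was fixed by the filter.

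Promoter sequence was examined for the tested members whose groups did not overlap, since activated Smads bind DNA. RefSeq windows (GRCm38.p6) of 250 bases before the start were found for 23 of the 34 members. Tgfb3 is named only, and no sequence of Bambi is shown. The letters searched on both strands were GTCTAGAC, the Smad palindrome, GGCGCC, a GC-rich element of the BMP Smads, and CAGACA, a form of the Smad box. None of them overlaps another as written. The following stretches, 5′ to 3′ on the minus strand with matches in capitals, are the parts of 3 windows outside the annotated exons of the gene itself (GENCODE M21, GRCm38). They are shown because they head the most abundant member, a ligand and the most abundant Smad.
Serpine2, chr1:79858697-79858915: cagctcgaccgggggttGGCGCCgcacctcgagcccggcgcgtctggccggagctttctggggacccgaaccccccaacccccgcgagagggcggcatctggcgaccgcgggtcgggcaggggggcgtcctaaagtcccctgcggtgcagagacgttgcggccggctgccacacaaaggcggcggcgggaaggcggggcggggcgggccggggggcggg
Tgfb2, chr1:186705990-186706239: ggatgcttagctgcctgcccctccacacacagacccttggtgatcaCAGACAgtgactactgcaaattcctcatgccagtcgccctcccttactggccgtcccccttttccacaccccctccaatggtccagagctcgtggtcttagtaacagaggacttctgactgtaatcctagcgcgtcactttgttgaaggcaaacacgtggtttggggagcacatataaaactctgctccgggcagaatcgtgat
Smad1, chr8:79399519-79399678: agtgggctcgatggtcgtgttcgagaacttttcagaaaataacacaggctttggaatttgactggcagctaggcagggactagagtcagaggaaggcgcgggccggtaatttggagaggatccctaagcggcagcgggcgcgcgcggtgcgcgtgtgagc

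In the Serpine2 stretch GGCGCC begins 233 bases before the RefSeq start, within the annotated gene, upstream of the internal start. In Tgfb2, CAGACA begins 204 bases before the start, in sequence that also lies under Gm29491. No match was found in the Smad1 stretch or in the window of Acvr2b, and in that of Bmpr1a GGCGCC begins 198 bases before the start. Over the 250-base windows, GGCGCC was present for 9 of 23 members against 10.8% of 27025 genes, CAGACA for 5 of 23 against 19.3%, and GTCTAGAC for 0 of 23 against 0.2%. The member windows were also richer in G and C (median 66.8%, against 52.4% over all windows), and the part of base composition in these shares was not tested. A match is a description of the sequence and not of binding.

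Among the member ligands, Bmp7 and Bmp4 were the abundant ones and neither separated the genotypes. Bmp7 (chromosome 2, 172868012 to 172940321) was at 39.5 and 66.7 FPKM in the WT libraries against 63.4 and 57.9 FPKM in the KO libraries. WT 1 alone was low, and the KO values lay between the 2 WT values. The log2 difference was 0.23 (SE 0.30, limma adjusted p = 0.98), and without WT replicate 1 it was -0.14. Bmp4 (chromosome 14, 46383520 to 46390669), a ligand classically used to block oligodendrocyte differentiation in culture, was at 58.1 and 21.0 FPKM in the WT libraries and at 31.6 and 14.8 FPKM in those of KO. Its highest value was in WT 1 and its lowest in KO 2, and within each genotype the library numbered 1 was the higher, 2.76-fold in WT and 2.14-fold in KO. The groups overlapped, and the log2 difference of -0.67 (SE 0.60, limma adjusted p = 0.95) became 0.04 without WT replicate 1. Within each library number the KO value was the lower. With a replicate block the difference was -0.669 (SE 0.231, limma adjusted p = 0.485), although what a number stands for is not stated. The ratio of Bmp7 to Bmp4 accordingly went from 0.68 in WT 1 to 3.17 in WT 2, and was 2.005 in KO 1 and 3.91 in KO 2. Bmp2 was low, at 0.813 and 0.439 FPKM in the WT libraries against 0.751 and 1.28 FPKM in the KO libraries.

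The TGF-beta ligands were led by Tgfb3 (chromosome 12, 86056745 to 86079041), at 2.67 and 1.69 FPKM in the WT libraries and 4.74 and 3.68 FPKM in those of KO. Both KO libraries were above both WT libraries, by group means of 2.18 ± 0.698 and 4.21 ± 0.748 FPKM (SD, n = 2). The log2 difference of 0.72 (SE 0.37, 95% interval -0.24 to 1.68) did not pass (limma adjusted p = 0.91). Tgfb2 was close to level across libraries, at 1.75 and 1.69 FPKM in the WT libraries against 2.01 and 2.29 FPKM in the KO libraries. Its log2 difference was 0.21 (SE 0.35), and the groups overlapped once the trends with level and length had been removed. Tgfb1, the isoform of immune cells and vessels, was listed at 0 and 1.36 FPKM in the WT libraries and at 0.069 and 0.399 FPKM in those of KO. Within each genotype it was higher in the library numbered 2, as were the summed markers of microglia and endothelium; their part in this was not tested.

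Serpine2 (protease nexin 1) was by far the most abundant member. It encodes a secreted inhibitor of thrombin and other serine proteases rather than a core pathway component. The gene (chromosome 1, 79794197 to 79861180) was read at 534.3 and 612.5 FPKM in the WT libraries against 652.0 and 681.1 FPKM in the KO libraries. Both KO libraries were above both WT libraries, although the gap between WT 2 and KO 1 was smaller than that between the WT libraries. The log2 difference was 0.22 (SE 0.11, 95% interval -0.06 to 0.50) and did not pass (limma adjusted p = 0.91). Among the tested members it had the narrowest interval. Its mean level exceeded that of 99.9% of all rows.

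Secreted BMP antagonists were represented by noggin. Nog, which binds BMP4 and BMP7 and keeps them from their receptors, was at 2.25 and 7.74 FPKM in the WT libraries and at 2.50 and 6.33 FPKM in those of KO. The libraries numbered 2 were high in both genotypes and the groups overlapped widely (log2 difference -0.07, SE 0.65, 95% interval -1.74 to 1.59, limma adjusted p = 0.995). The ratio of Bmp4 to Nog within a library was 25.8 in WT 1 and 12.6 in KO 1, against 2.72 in WT 2 and 2.34 in KO 2. Bmp4 was thus high where Nog was low. Grem1, another BMP antagonist, was listed at 0 in both WT libraries and at 0.821 and 0.015 FPKM in KO. Fst, which encodes the activin-binding follistatin, was listed at 0 in 3 libraries and at 0.339 FPKM in KO 2. The latent TGF-beta binding proteins, which hold the ligand in the matrix, were low. Ltbp3 was at 1.17 and 0.806 FPKM in the WT libraries against 0.726 and 1.56 FPKM in the KO libraries (log2 difference 0.09, SE 0.41). Ltbp1 was at 0.529 and 0.064 FPKM in the WT libraries and at 0.708 and 0.349 FPKM in those of KO.

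**Figure D3:**
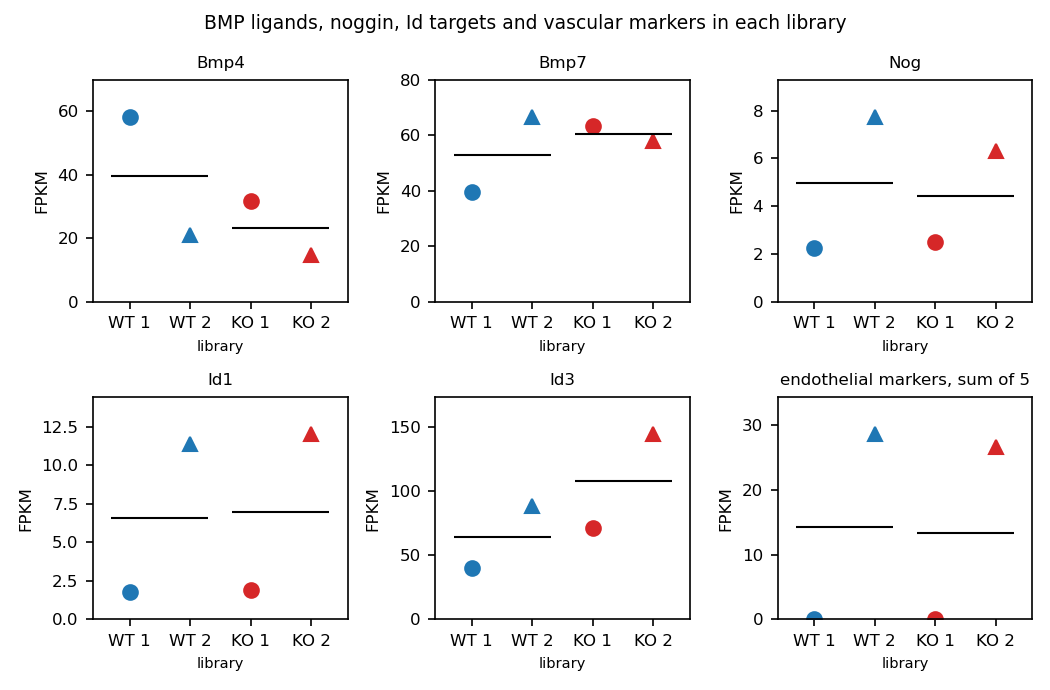
FPKM of Bmp4, Bmp7, Nog, Id1 and Id3 and the sum of 5 endothelial markers in each library (circles libraries numbered 1, triangles those numbered 2; blue WT, red KO; black lines group means). Nog, Id1, Id3 and the endothelial sum are higher, and Bmp4 lower, in the library numbered 2 of each genotype. The endothelial sum is nearly all Cldn5.

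Type I receptors were present at 1.69 FPKM or less. Bmpr1a, a type I receptor shared by BMP2 and BMP4, was at 0.879 and 0.986 FPKM in the WT libraries against 1.69 and 1.40 FPKM in the KO libraries, about 196 and 258 reads against 398 and 331. Its log2 difference was 0.39 (SE 0.36, 95% interval -0.53 to 1.32, limma adjusted p = 0.95). Bmpr1a entered the test through KO alone, so its separation was fixed by the filter. The related Bmpr1b did not exceed 0.015 FPKM, about 3 reads, in any library. Acvr1, which responds to BMP7 among others, was at 0.839 and 0.819 FPKM in the WT libraries and at 1.08 and 0.240 FPKM in those of KO, with KO 2 alone low. Tgfbr1, the TGF-beta type I receptor, was at 0.562 and 1.10 FPKM in the WT libraries against 0.330 and 1.07 FPKM in the KO libraries, low in both libraries numbered 1 (log2 difference -0.13, SE 0.43).

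Type II receptors, which phosphorylate the type I chain, included the only tested member whose KO values both lay below WT. Acvr2b, an activin and BMP receptor, was at 1.49 and 1.64 FPKM in the WT libraries and at 0.726 and 1.22 FPKM in those of KO. The difference of -0.39 (SE 0.37, 95% interval -1.35 to 0.57) did not pass (limma adjusted p = 0.95). Its relative Acvr2a was ordered differently, at 0.237 and 0.920 FPKM in the WT libraries against 0.497 and 1.70 FPKM in the KO libraries, with the libraries numbered 2 higher within each genotype. Bmpr2, the type II receptor for BMPs, was at 0.371 and 1.31 FPKM in the WT libraries and at 0.666 and 0.432 FPKM in those of KO, with WT 2 alone high. Tgfbr2, the receptor that TGF-beta needs first, stayed at or below 0.017 FPKM, about 6 reads, in every library. The accessory receptor Tgfbr3 (betaglycan), which presents TGF-beta2, was listed at 0 in both libraries numbered 1. It reached 0.599 FPKM in WT 2 and 0.552 FPKM in KO 2. In the same 2 libraries Cldn5, nearly all of the endothelial sum, was high, and the part of endothelial cells was not tested.

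Bambi encodes a receptor-like protein that lacks a kinase domain and dampens BMP and TGF-beta signals. It was listed at 0 in WT 1 and was at 0.195 FPKM in WT 2, 1.008 FPKM in KO 1 and 4.48 FPKM in KO 2, about 43, 203 and 901 reads in the last 3. The KO libraries stood above those of WT, and within each genotype the library numbered 2 was the higher. The KO libraries differed from each other more than KO 1 differed from WT 2. The log2 difference was 1.60 (SE 0.59, 95% interval 0.09 to 3.11), with an unadjusted p of 0.0415 and an adjusted p of 0.87 by limma. Bambi entered the test through the KO libraries alone, so the filter fixed its separation, and the interval and p carry that selection. Without KO replicate 2 the difference was 0.88, and without KO replicate 1 it was 2.33. A 0 in this table can be a failed estimate, which was not tested for Bambi or for any other row. Of 35869 rows, between 2 and 11 per library were listed below 0.05 FPKM while the remaining libraries all had at least 5. Such rows numbered 10 and 11 in the WT libraries and 2 and 3 in KO. Bambi, at 4.48 FPKM or less, could not meet that criterion, so these counts do not bear on its 0 in WT 1.

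**Figure D4:**
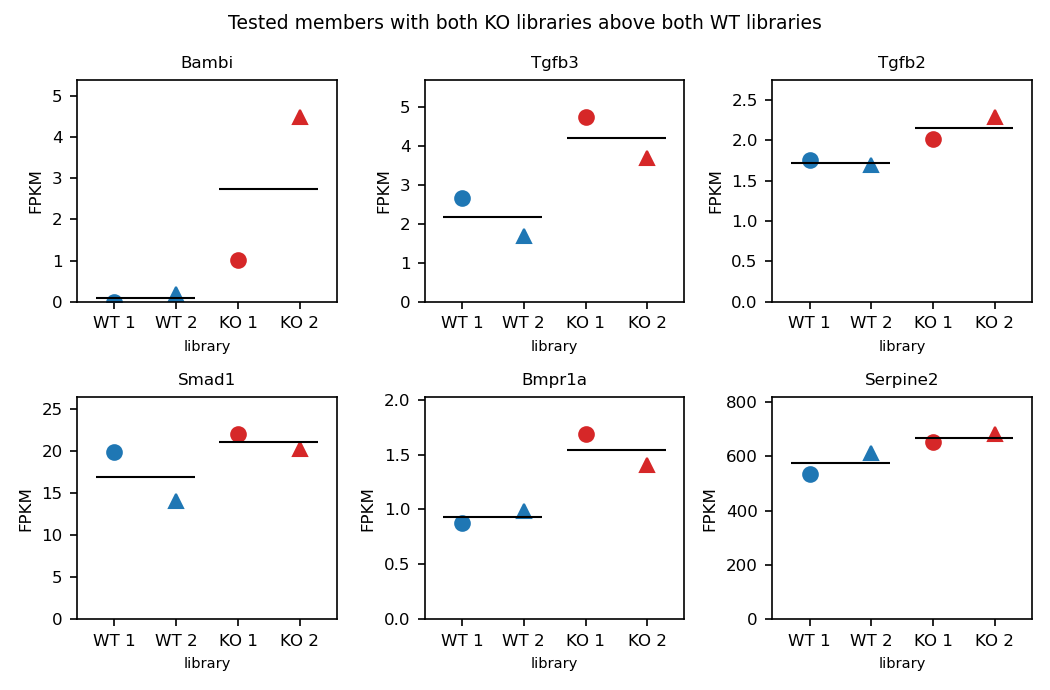
FPKM in each library of the 6 tested members for which both KO libraries (red) lay above both WT libraries (blue), with circles for libraries numbered 1, triangles for those numbered 2 and black lines at group means. The separation was narrow for Serpine2, Smad1 and Tgfb2, and none of the 6 passed the test after adjustment. For Bambi and Bmpr1a, which entered the test through KO alone, the filter fixed the separation.

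Smad1 was the most abundant receptor-regulated Smad, with 86.7%, 82.2%, 94.3% and 91.6% of their summed FPKM in WT 1, WT 2, KO 1 and KO 2. The gene (chromosome 8, 79338395 to 79399518) was at 19.8 and 14.1 FPKM in the WT libraries against 22.0 and 20.2 FPKM in the KO libraries, with WT 2 the lowest library. The log2 difference was 0.32 (SE 0.28, 95% interval -0.40 to 1.04, limma adjusted p = 0.95), and the groups overlapped after quantile normalization, median centring or removal of the trends with level and length. Smad5 was at 0.435 and 1.39 FPKM in the WT libraries and 0.534 and 0.463 FPKM in those of KO, and Smad9 at no more than 0.015 FPKM. Of the Smads of the TGF-beta arm, Smad2 was at 1.33 and 1.51 FPKM in the WT libraries against 0.787 and 1.38 FPKM in the KO libraries (log2 difference -0.23, SE 0.38). Smad3 was at 1.27 and 0.151 FPKM in WT, about 242 and 34 reads, and was listed at 0 in both KO libraries. With WT 2 nearer to the KO libraries than to WT 1, that separation rests on WT 1. Smad3 was below the filter and was not tested.

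Smad4, the partner of every receptor-regulated Smad, was at 5.36 and 7.11 FPKM in the WT libraries and at 6.86 and 5.29 FPKM in those of KO. The groups spanned the same range (log2 difference -0.03, SE 0.34, 95% interval -0.89 to 0.83), and the sign turned on rescaling to TPM. The inhibitory Smads compete at the receptor and are themselves induced by the pathway. Smad7 was at 1.06 and 1.05 FPKM in the WT libraries against 1.38 and 0.744 FPKM in the KO libraries (log2 difference -0.01, SE 0.38, 95% interval -0.997 to 0.974). Smad6, which acts mainly on the BMP arm, did not exceed 0.004 FPKM in 3 libraries and was at 0.598 FPKM in KO 2.

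Intracellular inhibitors did not separate the genotypes. Ski, a corepressor that binds Smad complexes, was the most abundant of them, at 4.17 and 2.72 FPKM in the WT libraries and 2.87 and 3.20 FPKM in those of KO (log2 difference -0.12, SE 0.36). Its relative Skil was at 0.651 and 0.652 FPKM in the WT libraries against 0.891 and 0.295 FPKM in the KO libraries. The ubiquitin ligases Smurf1 and Smurf2, which mark Smads and receptors for degradation, were near 1 FPKM. Smurf1 was at 0.594 and 1.06 FPKM in the WT libraries and 0.958 and 1.25 FPKM in those of KO (0.21, SE 0.38 on the log2 scale). Smurf2 was at 1.39 and 0.679 FPKM in the WT libraries against 1.31 and 1.40 FPKM in the KO libraries (0.23, SE 0.39), with WT 2 alone low.

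The wider pathway list held 104 genes that are no members, of which 53 were tested. None passed by limma. At an unadjusted p under 0.05, 3 were higher (Bmper, Bgn and Msx1) and 0 lower, against 2.81% and 2.85% of all tested rows, and the median log2 difference was 0.12. Both KO libraries were higher for 8 and lower for 5, against 16.6% and 18.3% of rows, and 40 overlapped. Bgn, Rgma, Msx1 and Ltbp4 entered the test through KO alone. Without those 4 genes, 4 of 49 lay higher and 5 lower, and Bmper alone had an unadjusted p under 0.05 by limma. By role and again without them, 2 of 12 extracellular regulators, 0 of 2 receptors and co-receptors, 1 of 10 targets and 1 of 19 intracellular regulators lay higher. All 5 lower genes were among the 19 tested intracellular regulators, against 18.3% of all tested rows. The shares of all rows still hold the rows that entered through KO alone, so they are not matched to these counts. None of the 6 tested ligands separated the genotypes.

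Of the extracellular regulators, Bmper, a secreted BMP-binding protein, was at 4.38 and 4.99 FPKM in the WT libraries and at 12.7 and 9.54 FPKM in those of KO. The KO libraries were well apart from WT, yet the log2 difference of 1.08 (SE 0.32) did not pass (limma adjusted p = 0.86). Bgn, a matrix proteoglycan that binds TGF-beta, was listed at 0 and 0.158 FPKM in the WT libraries against 1.30 and 2.25 FPKM in the KO libraries. Rgma, a BMP co-receptor, was at 0.522 and 0.474 FPKM in the WT libraries and 2.25 and 1.26 FPKM in those of KO.

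Of the intracellular regulators, Tab2, an adaptor of the TAK1 kinase, was at 0.589 and 1.12 FPKM in the WT libraries against 2.11 and 1.76 FPKM in the KO libraries. Ep300, a histone acetyltransferase that Smads recruit, lay lower in KO, at 1.32 and 1.04 FPKM against 0.138 and 0.238 FPKM (log2 difference -0.88, SE 0.37, limma adjusted p = 0.88). Ctdsp1, a phosphatase that acts on Smads, was at 1.32 and 2.20 FPKM in the WT libraries and 0.812 and 0.781 FPKM in those of KO. Fkbp1a, Strap and Ywhae also lay lower in both KO libraries, by at most 0.18 on the log2 scale, so their separation was small. Zeb2, a Smad-binding repressor needed for myelination, was at 2.50 and 1.15 FPKM in the WT libraries against 1.38 and 1.11 FPKM in the KO libraries, with WT 1 alone high.

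The Id genes encode inhibitors of helix-loop-helix factors and are direct BMP targets. Id1 was at 1.74 and 11.3 FPKM in the WT libraries and at 1.91 and 12 FPKM in those of KO (log2 difference 0.08, SE 1.02). The libraries numbered 2 were high in both genotypes. These are the 2 libraries with the least Bmp4 and with Cldn5, nearly all of the endothelial sum, at 26.8 and 26.3 FPKM. The part of other cells was not tested. Id3 was at 39.9 and 88.2 FPKM in the WT libraries against 71.1 and 144.6 FPKM in the KO libraries, higher in the library numbered 2 of each genotype (log2 difference 0.76, SE 0.51). Id2 was at 65.4 and 117.9 FPKM in the WT libraries and 93.6 and 95.5 FPKM in those of KO. Id4 was at 5.91 and 12.5 FPKM in the WT libraries against 8.27 and 8.52 FPKM in the KO libraries. For both, the KO values lay inside the WT range. Msx1, a homeobox gene induced by BMPs, was listed at 0 in both WT libraries and was at 2.41 and 1.15 FPKM in KO, with a limma adjusted p of 0.86. Hey1, a repressor that responds to Notch and to BMPs, was at 10.4 and 13.7 FPKM in the WT libraries and at 19.1 and 19.5 FPKM in those of KO (log2 difference 0.65, SE 0.27, limma adjusted p = 0.88).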

How the data were processed

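RNA-seq of 4 libraries (2 WT, 2 KO) was deposited by the authors as FPKM, 1 column per library. Per the submitters' processing notes, TopHat and the mm10 build were used, with no version given. No source used here names the estimating program, annotation or strand setting, so reads of antisense or overlapping transcripts (as at Bmp4, Bmpr1a, Tgfb2, Tgfb3, Acvr2a, Ltbp3 and Fst) cannot be told apart. Low-level values can be failed estimates.

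FPKM were analysed as log2(FPKM + 1) without further scaling. Testing, by limma 3.58.1 under R 4.3.3, took in rows with at least 1 FPKM in at least 2 libraries (empirical Bayes with a mean-variance trend, two-sided, Benjamini-Hochberg adjustment over 10754 rows, threshold 0.05). The method was tested on simulated data, with changes larger than those of the tested members. Its power at smaller differences was not measured. The members and lists were chosen with earlier results of these data known. Library values are given for members that passed the filter or reached 0.5 FPKM in any library; from the wider list, Id1 to Id4, Zeb2 and up to 6 of the largest separated differences in each direction were named (6 higher, and the 5 that were lower). Positions and transcript lengths are from GENCODE M21 (GRCm38). Approximate reads were taken from the longest transcript and the commonest low value of FPKM times length. Alternatives covered pseudocount, filter, scaling, trends, variance model, replicate block and each library left out. No protein sequences were used here.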

Additional observations from a re-analysis of the deposited data

How the results depend on the processing

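By limma, 0 genes passed under the main settings (608 at an unadjusted p under 0.05) and under each of the 15 alternatives. Of the 18 tested members, 9 kept their sign throughout (Smad1, Smad2, Bmpr1a, Bambi, Acvr2b, Tgfb2, Tgfb3, Serpine2 and Smurf1). Of these, Bambi and Bmpr1a had entered the test through KO alone. In all, 18 of 255 values for single members turned in sign. Where another library or scaling turned a sign, the cause was not tested. On rescaling to TPM, which moved the median of all genes to 0.095, Smad4 was at 0.0624, Smad7 at 0.0465 and Nog at 0.0205 on the log2 scale. Ltbp3 was at -0.0267 after quantile normalization and at -0.063 with the level and length trends removed. With each library left out in turn, the log2 difference ranged from -0.205 to 0.146 for Smad4, from -0.237 to 0.214 for Smad7, from -1.38 to 0.0422 for Bmp4, from -0.136 to 0.604 for Bmp7, from -0.786 to 0.641 for Nog, from -0.445 to 0.192 for Tgfbr1, from -0.198 to 0.372 for Ltbp3, from -0.358 to 0.116 for Ski and from -0.0188 to 0.488 for Smurf2. The median of the tested members was 0.149. It was 0.00823 over all 34 with no filter, 0.254 with TPM, 0.0111 after quantile normalization and -0.00822 with the trends removed, and from 0.0789 to 0.255 with a library left out.

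Of tested members, 2 lay higher with a mean of at least 5 FPKM required, which leaves few of them in the test, and 0 lower. Lower members numbered 2 with no filter (Acvr2b and Smad3) and 2 after quantile normalization, median centring or removal of the trends (Acvr2b and Smad2), and from 3 to 6 with a library left out, where separation is easier to meet. Leaving out a library gave from 7 to 9 higher members, from 3281 to 3820 higher genes and from 3518 to 3939 lower genes. With TPM 2335 genes lay higher and 1408 lower, with no filter 3158 and 3046, and 844 higher at a mean of at least 5 FPKM. At an unadjusted p under 0.05 there were 302 higher and 306 lower genes, against 608 and 515 with no filter, 126 higher at a mean of at least 5 FPKM, and 383 and 181 with TPM. With a library left out the counts ranged from 118 to 406 higher (136 without KO replicate 1, 118 without KO replicate 2) and from 188 to 230 lower (188 without WT replicate 1).

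The libraries share numbers in the labels, which do not say what a number stands for. Differences of library 2 from library 1 correlated between WT and KO (r = 0.289 across 10754 genes, which are not independent). With a replicate block, 477 genes were higher and 548 lower at an unadjusted p under 0.05 and 0 passed (smallest member adjusted p = 0.427, Bambi); Bmp4 was at -0.669 with an SE of 0.231 in place of 0.598. No interval for counting error is given because read counts are not known, and members near 0 are limited by that.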

Other observations

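The 6 tested ligands of the wider list were split by library number, and those described here were chosen after their values were seen. How many of all tested rows kept the same direction between library numbers in both genotypes was not counted. Gdf15, Inha and Inhbb were higher in the library numbered 2 of each genotype, and Bmp1, Gdf1 and Gdf11 were lower there. Gdf15, a stress-induced ligand, was at 0.011 and 5.76 FPKM in the WT libraries against 0 and 1.11 FPKM in the KO libraries. Inhbb, which encodes the subunit of activin B, was at 2.38 and 10.9 FPKM in the WT libraries and at 7.67 and 12.8 FPKM in those of KO. Its log2 difference between genotypes was 0.79 (SE 0.68, limma adjusted p = 0.95). Of the listed targets, the immediate early gene Junb was at 1.57 and 15.4 FPKM in the WT libraries against 7.95 and 22.0 FPKM in the KO libraries, and the matricellular gene Cyr61 at 17.8 and 58.3 FPKM in the WT libraries and 33.0 and 42.5 FPKM in those of KO. Cdkn2b, a cell cycle inhibitor induced by TGF-beta, was listed at 0 in both libraries numbered 1 and was at 2.08 and 1.58 FPKM in WT 2 and KO 2. Msx2 and Bmp5 were listed at 0 in all 4 libraries.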
